A study of Mus musculus with 6 samples.

Results

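The HIN-200 cluster on mouse chromosome 1 is a tandem run of interferon-inducible genes, and its transcripts were compared paralog by paralog between regulatory T cells of Il33-deficient and wild-type mice. The 10 genes followed here were Aim2, Ifi206, Ifi214, Ifi213, Ifi209, Ifi208, Ifi207, Ifi204, Mndal and Ifi203, named in their order along the chromosome, out of 37187 gene rows in the count table. They were chosen by symbol and because Ifi208 differed strongly between the genotypes, so their fold changes are given as a description, and nothing is read from how many of them passed the fit across all genes. All 10 had enough reads to enter the fit across all genes, and they spanned 592 kb, from position 173350879 to 173942672 of GRCm38.

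RNA came from sorted CD4+CD25+GITR+ cells. There were 3 libraries from il33-/- mice (KO, replicates 4 to 6) and 3 from C57BL6 mice (WT, replicates 1 to 3). The KO mice were on the same C57BL6 background, and every mouse carried a B16.F10 melanoma, a transplantable mouse tumour line, started by injecting 300000 cells under the skin. Tumour-draining lymph nodes were taken on day 14, when the regulatory T cells (Tregs) were sorted. Neither tumour-free mice nor Tregs from inside the tumour were among the libraries, and the labels give the genotype of the whole mouse, not of the Tregs alone. They do not say whether each library came from a separate animal, so p-values describe only the spread among libraries.

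HIN-200 proteins, also called PYHIN proteins, typically join an N-terminal pyrin domain, which binds other pyrin domains, to one or more HIN domains, which bind DNA. AIM2 senses double-stranded DNA in the cytosol and builds an inflammasome that activates caspase-1. IFI204, the mouse relative of human IFI16, is known for DNA sensing upstream of STING and for control of cell growth and differentiation. The family expanded separately in mice and humans, so most mouse members have no single human counterpart, and many are transcribed through interferon-stimulated response elements. In lymphocytes several members are expressed at rest and rise further with type I interferon.

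Total counts ran from 20877014 to 21073195 in KO libraries and from 18071928 to 21165063 in WT libraries. Il33 itself, on chromosome 19, had 3, 8 and 2 counts in KO replicates 4, 5 and 6, and 7, 0 and 9 counts in WT replicates 1, 2 and 3, so it was too low to check the genotype labels. A count of 0, as in WT replicate 2, allows up to 0.156 CPM, the unit for reads scaled to library size with TMM factors, for counting error only. Foxp3, the defining transcription factor of Tregs, stood at 790 to 857 CPM in KO libraries and 719 to 803 CPM in WT libraries. The 10 Treg markers together summed to 5423 to 5672 CPM in KO and 4500 to 5188 CPM in WT, and Nrp1, Ctla4 and Tnfrsf4 of them rose in KO, at log2 fold changes of 0.45, 0.53 and 0.24. The call of Tnfrsf4 was lost without KO replicate 5, KO replicate 6, WT replicate 1 or WT replicate 3. With a B cell score added to the model, as described below, none of Nrp1, Ctla4 and Tnfrsf4 passed. Over all genes 3.68% were called higher in KO. Transcripts of B cells were present too, and the sum over 18 of their markers was 1370, 1704 and 1371 CPM in KO replicates 4, 5 and 6, and 3761, 2271 and 3092 CPM in WT replicates 1, 2 and 3. Among the WT libraries, replicate 2 had the lowest B cell signal.

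Ifi208 had the largest difference of the cluster. It is listed in the authors' symbol tables as Pydc3, short for pyrin domain containing, and lies on the plus strand at 173673675 to 173698395. Ifi208 had 388, 323 and 340 reads in KO replicates 4, 5 and 6, against 2487, 3131 and 2521 reads in WT replicates 1, 2 and 3. The highest KO library was far below the lowest WT library, and the groups did not overlap. On the CPM scale Ifi208 averaged 16.7 ± 1.61 in KO and 140.1 ± 22.4 in WT (SD, n = 3 each). Its log2 fold change, KO over WT, was -3.07 (SE 0.13). WT libraries therefore held 8.4 times as much Ifi208 transcript as KO libraries on average. In bulk RNA, fewer cells expressing a gene and less RNA per cell cannot be told apart.

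**Figure D1:**
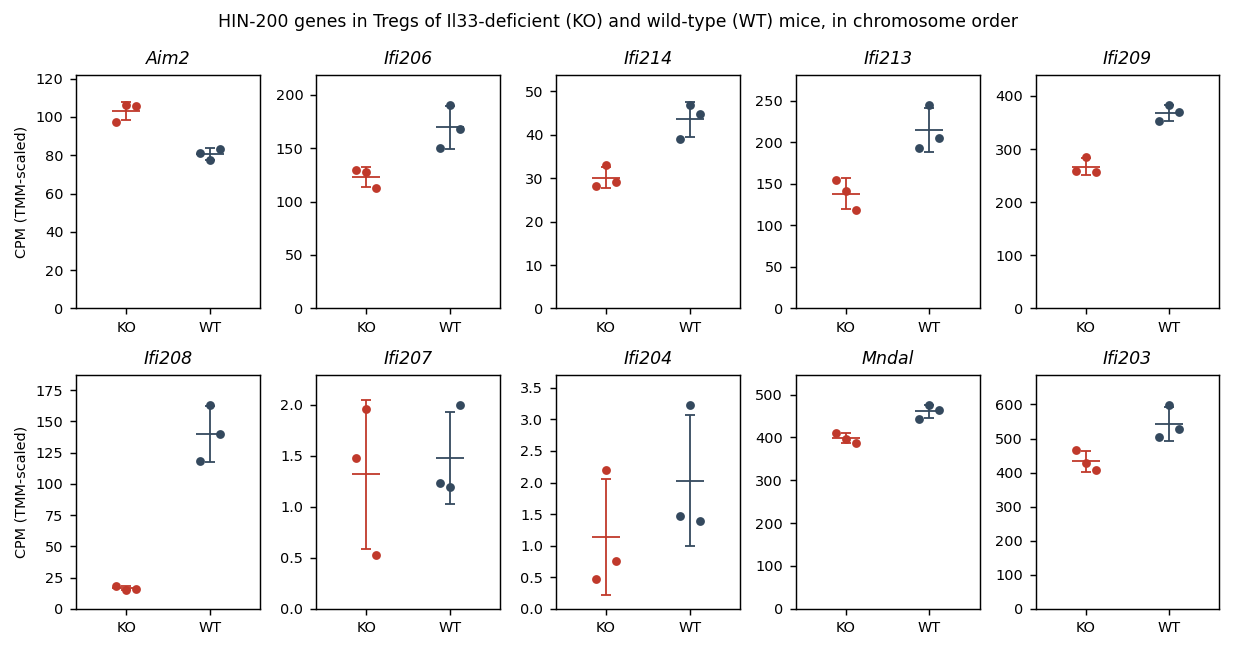
Level of each of the 10 HIN-200 genes in every library, in CPM with TMM scaling on a linear axis from 0, KO left and WT right. Points are libraries and the horizontal bars with whiskers are the mean ± SD of 3 libraries. Ifi208 stands at 15.4 to 18.5 CPM in KO and 118.0 to 162.8 CPM in WT, Aim2 is the gene whose KO points all lie above its WT points, and the points of Ifi207 and Ifi204 overlap.

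Ifi208 was also compared with its closest relatives in sequence. In the RefSeq promoter table on GRCm38.p6, which gives 250 bases before to 50 bases after a gene's start, the promoter of Ifi208 matched that of Ifi213 at 98.9% of 285 aligned bases, with 3 differences and no gap. Its match to the promoter of Ifi206 was 98.9% over 282 aligned columns, also with 3 differences. The 3 promoters are printed 5′ to 3′ on the gene's own strand because these near-copies belong to genes with very different fold changes. Capitals mark the core of an interferon-stimulated response element, that is GAAA and GAAA separated by NN (any bases), searched on both strands.
Ifi208 (chr1:173673415-173673714, plus strand): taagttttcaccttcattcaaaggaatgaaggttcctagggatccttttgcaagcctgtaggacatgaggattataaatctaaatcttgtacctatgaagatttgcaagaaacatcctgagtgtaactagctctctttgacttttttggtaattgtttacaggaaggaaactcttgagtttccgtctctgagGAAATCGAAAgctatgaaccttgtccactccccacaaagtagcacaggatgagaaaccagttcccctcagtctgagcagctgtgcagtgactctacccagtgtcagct
Ifi213 (chr1:173599223-173599522, minus strand): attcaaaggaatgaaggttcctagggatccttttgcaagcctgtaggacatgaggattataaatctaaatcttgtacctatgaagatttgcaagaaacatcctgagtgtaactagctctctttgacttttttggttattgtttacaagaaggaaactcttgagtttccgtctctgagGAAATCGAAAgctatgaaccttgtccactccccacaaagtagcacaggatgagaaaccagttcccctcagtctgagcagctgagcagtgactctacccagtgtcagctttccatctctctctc
Ifi206 (chr1:173491269-173491568, minus strand): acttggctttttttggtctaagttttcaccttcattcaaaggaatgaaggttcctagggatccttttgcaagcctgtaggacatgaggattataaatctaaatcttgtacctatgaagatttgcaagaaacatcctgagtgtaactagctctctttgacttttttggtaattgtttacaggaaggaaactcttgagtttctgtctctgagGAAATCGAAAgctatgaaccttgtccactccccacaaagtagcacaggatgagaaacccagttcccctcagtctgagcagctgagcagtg
The same 10 bases, GAAATCGAAA, occurred in all 3, starting 58 bases before the start of Ifi208, 73 bases before that of Ifi213 and 40 bases before that of Ifi206. A match is a description of the letters and not evidence that a factor binds there.

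Ifi213 and Ifi206, the genes with these near-identical promoters, were lower in KO by far less than Ifi208. Ifi213, listed as Pydc4 in the symbol tables, had 154.7, 142.0 and 118.5 CPM in KO replicates 4, 5 and 6, against 193.9, 245.1 and 205.7 CPM in WT replicates 1, 2 and 3. The KO libraries were all below the WT libraries, with KO replicate 6 lowest and WT replicate 2 highest. The log2 fold change of Ifi213 was -0.63 (SE 0.12), so KO libraries averaged 0.644 of the WT level. Ifi206, listed as Gm4955, had 129.0, 127.4 and 112.4 CPM in KO replicates 4, 5 and 6, against 150.1, 190.2 and 168.1 CPM in WT replicates 1, 2 and 3. Its groups did not overlap either, and its log2 fold change was -0.46 (SE 0.09).

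Setting Ifi208 against these relatives inside each library removes differences in library size, but not differences in the mix of cells. Per 100 reads of Ifi213 there were 12.0, 10.8 and 13.7 reads of Ifi208 in KO replicates 4, 5 and 6, against 60.9, 66.4 and 67.8 in WT replicates 1, 2 and 3. Per 100 reads of Ifi206 there were 14.3, 12.1 and 14.4 reads of Ifi208 in the KO libraries and 78.7, 85.6 and 83.0 in the WT libraries, in the same replicate order. Within each group the ratios stayed close together, with means of 12.2 ± 1.46 in KO and 65.0 ± 3.65 in WT for Ifi213 as the partner (SD, n = 3 each). Ifi208 was lower in KO relative to both promoter near-copies, which follows from the fold changes given above and is not a separate test.

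**Figure D2:**
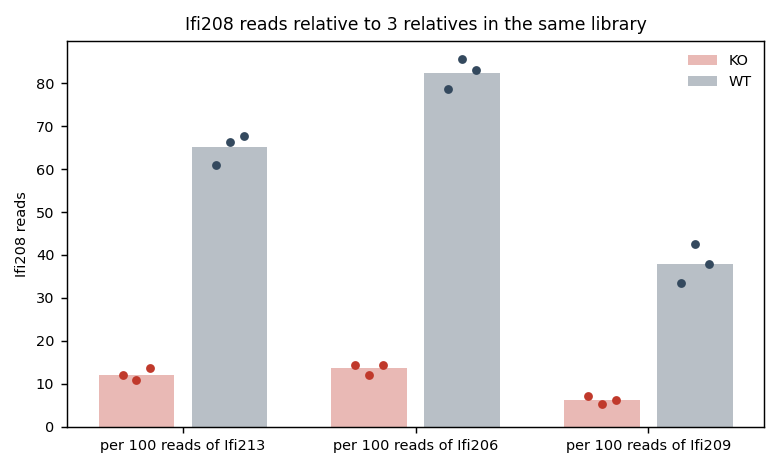
Reads of Ifi208 per 100 reads of Ifi213, Ifi206 or Ifi209 in the same library, on a linear axis from 0, KO left and WT right in each pair. Bars are means of 3 libraries and points are single libraries. The KO points lie between 5.4 and 14.4 and the WT points between 33.4 and 85.6, and no pair overlaps.

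Reads of close paralogs can be assigned to the wrong copy, which bears on how far each row is the gene it names. Of all windows of 50 bases in the GENCODE transcripts of Ifi208, 20.9% also occurred in a transcript of another gene, and 11.8% of windows of 75 bases did. The sharing was mostly with Ifi213, at 951 windows of 50 bases or 18.1% of those of Ifi208, and with Ifi206, at 319 windows or 6.07%. Among the other members the shared part at 50 bases ranged from 0.742% in Aim2 to 33.7% in Ifi209. The sources used here give neither the read length nor the treatment of reads that match several genes, so the counts of all members are uncertain by the reads in such stretches, least so for Aim2. How many of the reads in KO libraries assigned to Ifi208 came from a paralog was not tested.

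Ifi209 and Ifi214 form a second near-identical pair. Their promoters matched at 95.7% of 300 aligned columns, with 13 differences, and 1182 windows of 50 bases were shared between their transcripts, 33.4% of those of Ifi209 and 14.5% of those of Ifi214. The promoters are printed to show the one place where the pair differs within the response element core. In Ifi214 the capitals mark GAAATCGAAA, 79 bases before the start, and in Ifi209 they mark the 10 bases that align with it, TAAATCGAAA, which do not meet the pattern because the first base is not G.
Ifi214 (chr1:173535908-173536207, minus strand): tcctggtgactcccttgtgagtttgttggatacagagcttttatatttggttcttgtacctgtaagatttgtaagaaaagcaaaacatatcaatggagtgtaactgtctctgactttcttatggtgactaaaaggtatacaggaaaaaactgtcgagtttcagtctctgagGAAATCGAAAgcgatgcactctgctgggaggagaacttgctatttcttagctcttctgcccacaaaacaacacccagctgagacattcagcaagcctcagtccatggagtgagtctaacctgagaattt
Ifi209 (chr1:173630609-173630908, plus strand): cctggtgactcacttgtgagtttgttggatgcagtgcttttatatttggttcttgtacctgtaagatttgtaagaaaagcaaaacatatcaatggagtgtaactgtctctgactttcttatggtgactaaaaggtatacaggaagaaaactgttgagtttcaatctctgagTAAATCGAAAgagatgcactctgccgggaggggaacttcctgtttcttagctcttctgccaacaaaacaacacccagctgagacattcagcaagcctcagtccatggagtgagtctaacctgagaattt
Ifi209, listed as Pyhin1, had 259.6, 284.9 and 257.1 CPM in KO replicates 4, 5 and 6, against 353.1, 382.9 and 369.4 CPM in WT replicates 1, 2 and 3. Its groups were well apart, and the log2 fold change was -0.46 (SE 0.06). Ifi214, matched to the symbol BC094916 by its values alone, had 28.3, 33.0 and 29.1 CPM in KO libraries and 39.1, 46.8 and 44.8 CPM in WT libraries, in the same replicate order. No KO library of Ifi214 reached a WT library, and the log2 fold change was -0.53 (SE 0.09). The fold changes of the pair differed by less than the standard error of that of Ifi214. How far reads exchanged through the shared windows, or the core in Ifi214, bear on these fold changes was not tested.

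Mndal and Ifi203, neighbours at the far end of the cluster, had the highest CPM of the family and the smallest differences among the 7 members called lower. Mndal, a relative of the human myeloid nuclear differentiation antigen gene MNDA, had 411.0, 396.2 and 388.3 CPM in KO replicates 4, 5 and 6, against 443.3, 475.1 and 464.2 CPM in WT replicates 1, 2 and 3. Ifi203 had 467.7, 426.7 and 406.8 CPM in KO libraries, against 503.2, 597.4 and 526.8 CPM in WT libraries. The groups of both genes were apart by a narrow margin, and the log2 fold changes were -0.21 (SE 0.05) for Mndal and -0.32 (SE 0.07) for Ifi203. Their exons overlap by 37 bases, which is 1.02% of the exon length of Mndal, and both genes are on the minus strand. A promoter of each held GAAATCGAAA, at 36 bases before the start in Mndal and 35 in Ifi203, while a second promoter of Mndal held the core on the other strand as TTTCTCTTTC.

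Aim2 was the member that was higher in KO. It had 97.4, 106.2 and 105.6 CPM in KO replicates 4, 5 and 6, against 81.4, 77.5 and 83.1 CPM in WT replicates 1, 2 and 3. All KO libraries were above all WT libraries, and the log2 fold change was 0.35 (SE 0.06). Aim2 shared almost no windows with another gene, none of 75 bases, so its count is the least open to exchange with paralogs. Its promoter, printed because Aim2 moved the opposite way, held neither the response element core nor TTCNNNGAA, the core of a gamma-activated site, and so has no capitals.
Aim2 (chr1:173420354-173420653, plus strand): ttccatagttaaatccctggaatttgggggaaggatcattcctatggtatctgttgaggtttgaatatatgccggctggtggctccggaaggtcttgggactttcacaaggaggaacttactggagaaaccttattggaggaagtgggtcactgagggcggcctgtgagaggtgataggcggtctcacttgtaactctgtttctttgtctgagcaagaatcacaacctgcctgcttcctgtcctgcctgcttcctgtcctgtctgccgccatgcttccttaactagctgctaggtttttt
That these letters are not in the window says nothing about which factors act on Aim2.

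Ifi204 and Ifi207 were near the limit of detection. Ifi204 had 10, 46 and 16 reads in KO replicates 4, 5 and 6, and 31, 62 and 25 reads in WT replicates 1, 2 and 3, which gave a log2 fold change of -0.82 (SE 0.57). Ifi207, listed as AI607873, had 31, 41 and 11 reads in KO libraries and 26, 23 and 36 in WT libraries, a log2 fold change of -0.15 (SE 0.42). Both groups overlapped in both genes, and a difference of the size seen in Ifi206 or Mndal was not detectable at this depth. Of the remaining family genes with a row in the table, Ifi211 and the pseudogene Ifi203-ps had under 1.5 CPM in every library, and their log2 fold changes were -0.24 (SE 0.39) for Ifi211 and -0.17 (SE 0.65) for Ifi203-ps. Ifi205 had 9, 13 and 8 reads in KO libraries and 10, 5 and 12 in WT libraries, and Ifi202b had at most 1 read in any library, so neither entered the fit.

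Counted over the family, 7 of the 10 members were past the adjusted p threshold of 0.05 as lower in KO, in edgeR's quasi-likelihood fit of all genes with p adjusted by Benjamini-Hochberg, where 2.83% of all 13626 genes were lower. Aim2 was the 1 member past the threshold as higher, where 3.68% of all genes were higher. The 7 were Ifi208, Ifi213, Ifi214, Ifi206, Ifi209, Ifi203 and Mndal, and Ifi204 and Ifi207 did not pass. The same 7 members had KO libraries all below WT libraries and Aim2 had them all above, while over all genes 12.6% had non-overlapping groups with KO lower and 13.7% with KO higher. Nothing is read from these counts, since the genotype contrast chose the members. The median log2 fold change of the members was -0.46, and it was also -0.46 without Ifi208, against 0.0 over all genes tested.

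**Figure D3:**
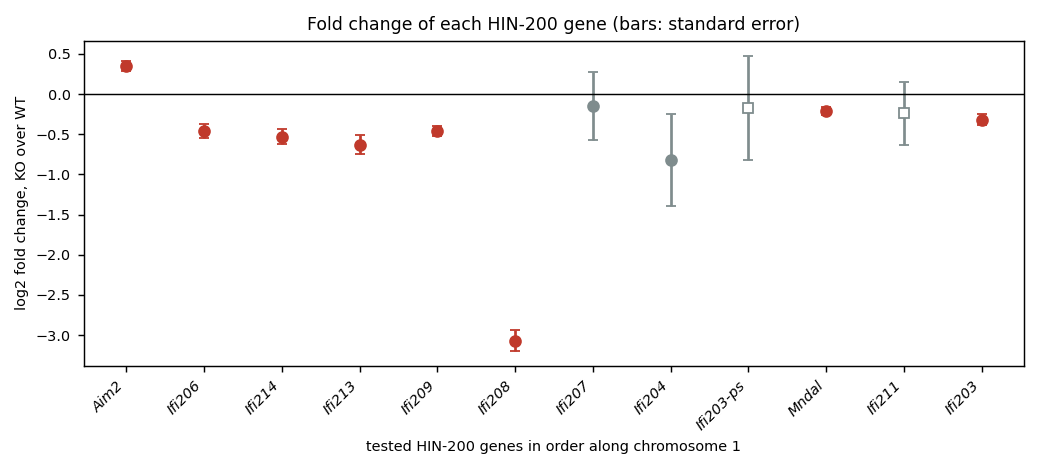
Log2 fold change, KO over WT, of the 12 tested HIN-200 genes in their order along chromosome 1, with the standard error of the fit across all genes as whiskers. Filled circles are the 10 members and open squares are Ifi203-ps and Ifi211; red marks genes past the adjusted threshold of 0.05 over all genes and grey those that are not. Ifi208 stands at -3.07, the other members that were lower stand between -0.82 and -0.15, and Aim2 stands at 0.35.

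Side by side, the members differed widely in size of difference. Ifi208 lay outside the range of the other members, whose log2 fold changes ran from -0.82 to 0.35, and 7 of all 13626 tested genes had a lower log2 fold change than Ifi208. Summed over the 9 members other than Ifi208, the family had 1550, 1521 and 1419 CPM in KO replicates 4, 5 and 6, against 1767, 2019 and 1865 CPM in WT replicates 1, 2 and 3. The groups did not overlap in this sum, which rests on members chosen through the same contrast and is given as a description.

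Calls of the smaller differences were lost more often under the alternatives to the fit than that of Ifi208. Ifi208 kept a log2 fold change between -3.5 and -2.87 and stayed past the threshold in all 18 alternatives, which included each library left out in turn. Mndal missed the threshold in 10 of the 18, Ifi203 in 6, Ifi206 in 4 and Ifi213 in 3. When each library's B cell score was added to the model, Ifi208 was the 1 member past the threshold as lower, at -3.5, where 0.11% of all genes were lower, and no member passed as higher, where 0.183% of all genes were higher. The differences themselves did not shrink in that model: Ifi213 had -0.85, Ifi206 -0.68, Ifi214 -0.65, Ifi203 -0.52, Ifi209 -0.50, Mndal -0.28 and Aim2 0.44 on the log2 scale. Their standard errors were larger there, from 0.11 for Mndal to 0.21 for Ifi213. Without KO replicate 5 the members lower past the threshold numbered 4, against 1.19% of all genes, and Ifi203, Ifi213 and Mndal no longer passed. Without KO replicate 6 they also numbered 4, against 0.964% of all genes, and Ifi203, Ifi206 and Mndal no longer passed. Without WT replicate 3 they numbered 3, against 0.918% of all genes, and Ifi203, Ifi206, Ifi213 and Mndal no longer passed. With WT replicate 2, which had the least B cell signal, as the sole WT library, Ifi208 had -3.28 and 6 members were lower past the threshold, against 0.688% of all genes, on the assumption that the single library varies like the KO libraries.

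**Figure D4:**
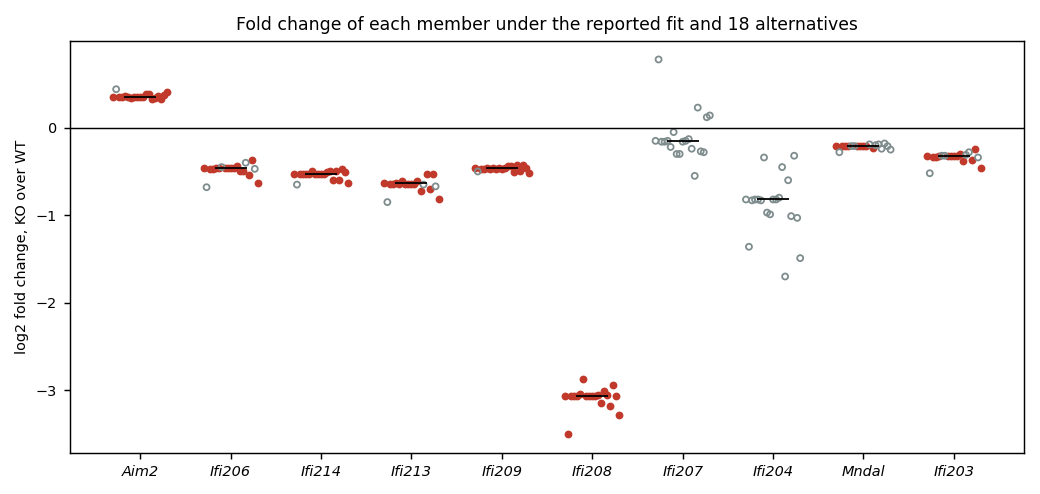
Log2 fold change, KO over WT, of each member in the reported fit (black dash) and under 18 alternatives (circles, spread sideways only so that they can be seen). Red filled circles are settings in which the gene passed the adjusted threshold of 0.05 over all genes, and open grey circles those in which it did not. Ifi208 lies between -3.5 and -2.87 throughout, Aim2 between 0.33 and 0.44, and Ifi207 crosses 0.

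Levels can be compared between members only per length, and the authors' FPKM, which are scaled by gene length and library size, give that scale. In KO libraries the mean FPKM ran from Mndal at 208 through Ifi209 at 75.9, Ifi203 at 64.3, Ifi206 at 40.3, Aim2 at 29.3, Ifi213 at 20.1 and Ifi214 at 8.33 to Ifi208 at 6.02. In WT libraries it ran from Mndal at 241 through Ifi209 at 105, Ifi203 at 80.6, Ifi206 at 55.7, Ifi208 at 50.7, Ifi213 at 31.3 and Aim2 at 22.9 to Ifi214 at 12.1. In both groups Ifi204 and Ifi207 came last, under 1 FPKM on average. The neighbours in the order whose library ranges overlapped were Ifi204 and Ifi207 in KO and Ifi206 and Ifi208 in WT.

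Ifi208 took different places in the order of the groups. Its FPKM were 6.68, 5.56 and 5.81 in KO replicates 4, 5 and 6, the eighth place, against 42.7, 59.0 and 50.4 in WT replicates 1, 2 and 3, the fifth place. Its share of the summed FPKM of the 10 members averaged 1.33% ± 0.111 in KO and 8.4% ± 0.805 in WT (SD, n = 3 each). Mndal held 45.9% ± 0.874 in KO and 40.2% ± 1.23 in WT, and Aim2 held 6.47% ± 0.481 in KO and 3.84% ± 0.354 in WT. The order and the shares rest on the lengths behind the authors' values, and the shares are not given on other lengths. The length implied for Ifi208 was 2756 bases, while its exons in GENCODE M21 cover 5258 bases. For Mndal, with the largest share, the implied length was 1907 bases against 3628 in M21. Ifi214 and Ifi204 also had implied lengths well below their M21 exons. Per kilobase of M21 exons Ifi208 still had place 8 in KO but place 6 in WT, below Ifi213. Aim2 had place 5 in KO and place 7 in WT on both length scales. Mndal, Ifi209, Ifi203 and Ifi206 kept the top places in both groups.

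Within the groups the members also differed in their spread. The coefficient of variation of Ifi208 was 9.66% in KO and 16.0% in WT, and that of Mndal was 2.89% in KO and 3.51% in WT. Ifi204 and Ifi207, with few reads, varied by 30.5% to 80.4%. Among the KO libraries 6 members were lowest in replicate 6, but the share over all genes is not given, so nothing is read from that count. In 8 of the 10 members WT replicate 2 was the highest WT library, while 36.3% of all tested genes were highest there. Aim2 went the other way, with WT replicate 2 as its lowest WT library.

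The genes whose profile over the 6 libraries was most like that of Ifi208, by Pearson correlation of log2 CPM, were Plxnd1 at 0.996, Pgm2 at 0.995, Tm9sf1 at 0.991, Mob1a at 0.988 and Cox7c at 0.988. None of them is on chromosome 1, and their log2 fold changes ran from -0.47 to -0.13. Among the members the correlation with Ifi208 was 0.971 for Ifi209, 0.967 for Mndal, 0.94 for Ifi214, 0.93 for Ifi213, 0.923 for Ifi206 and 0.904 for Ifi203. It was -0.978 for Aim2, 0.538 for Ifi204 and 0.216 for Ifi207. These values describe 6 libraries that share a difference between 2 groups, which alone gives high correlations.

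The interferon response core was common in these promoters. Of the members, 9 had a promoter in the RefSeq table, and Ifi204 had none there. The core of the response element, as searched above, occurred in a promoter of 7 members, namely Ifi206, Ifi214, Ifi213, Ifi208, Ifi207, Mndal and Ifi203. Counted by promoter it was in 8 of the 11 promoters of members, and in 3.44% of all 32851 promoters of the same length. Several of these are near-copies, as shown for Ifi208, Ifi213 and Ifi206, and a promoter of Mndal matched one of Ifi203 at 94.3%. Their matches are therefore not independent. TTCNNNGAA occurred in no member's promoter and in 8.3% of all promoters. The members with the core had log2 fold changes from -3.07 to -0.15, and the members without it were Ifi209 at -0.46 and Aim2 at 0.35. A link between the core and the fold changes was not tested.

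Genes of the type I interferon response, the program to which most HIN-200 genes belong, were lower in KO more often than higher. Of 53 tested genes on a list of interferon-stimulated genes that holds no member, 13 were lower, none was higher and 40 did not pass. The median log2 fold change was -0.22 against 0.0 over all genes, of which 2.83% were lower and 3.68% higher. The list, like the others used here, was chosen with earlier results of these data known, so its counts are a description. Samd9l, an antiviral growth regulator, averaged 416 ± 36.9 CPM in KO and 565 ± 18.1 CPM in WT (SD, n = 3 each), with a difference of -0.44 (SE 0.06) on the log2 scale. Oasl1, a regulator of Irf7 translation, averaged 8.7 ± 1.86 CPM in KO and 16.8 ± 1.23 CPM in WT. Trim25, a ubiquitin ligase of the RIG-I pathway, and Slfn1, a schlafen gene of T cell quiescence, had log2 fold changes of -0.33 (SE 0.06) for Trim25 and -0.47 (SE 0.08) for Slfn1. In the edgeR quasi-likelihood test the p-values after Benjamini-Hochberg adjustment were 0.00164 for Samd9l, 0.00227 for Oasl1, 0.00561 for Trim25 and 0.00581 for Slfn1. The summed CPM of the list was 5546, 5589 and 5145 in KO replicates 4, 5 and 6, against 6017, 7023 and 6412 in WT replicates 1, 2 and 3, so it too was highest in WT replicate 2. When the B cell score was added to the model, 2 genes of the list were lower past the threshold, with Slfn1 at a Benjamini-Hochberg adjusted p of 0.00681 in the edgeR test, and Samd9l, Oasl1 and Trim25 no longer passed. Their log2 fold changes in that model were -0.45 (SE 0.13) for Samd9l, -0.91 (SE 0.27) for Oasl1 and -0.40 (SE 0.12) for Trim25. The count of lower genes was 6 without KO replicate 6 and 5 without WT replicate 3.

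Genes of inflammasomes, the complexes of which AIM2 builds one kind, were higher in KO where they passed. Of 16 tested inflammasome genes 5 were higher in KO, none was lower and 11 did not pass, against 3.68% of all genes higher and 2.83% lower. The median log2 fold change was 0.15. This list too was chosen with earlier results of these data known, and its counts are a description. Casp4, the mouse caspase-11 gene of the non-canonical inflammasome, averaged 43.7 ± 4.53 CPM in KO and 25.3 ± 1.01 CPM in WT (SD, n = 3 each), with a difference of 0.79 (SE 0.09) on the log2 scale. Casp1, the caspase that AIM2 activates, averaged 38.3 ± 2.66 CPM in KO and 28.9 ± 1.84 CPM in WT, a log2 fold change of 0.40 (SE 0.08). The sensor gene Nlrp1b differed by 1.02 (SE 0.19) on that scale, and Naip5, whose protein recognises bacterial flagellin, had 0.63 (SE 0.12). After Benjamini-Hochberg adjustment the p of the edgeR quasi-likelihood test was 0.000198 for Casp4, 0.00845 for Nlrp1b, 0.0101 for Naip5 and 0.0114 for Casp1. The fifth gene was Gbp2. Counts of this kind depend on which list each gene was placed in. Casp1 missed the threshold without KO replicate 5 or WT replicate 3, and of the 4 named genes only Casp4 passed when the B cell score was in the model, at a Benjamini-Hochberg adjusted p of 0.0302 in the edgeR test. In that model Naip5 had a log2 fold change of 0.82 (SE 0.24), Casp1 0.54 (SE 0.16) and Nlrp1b 0.64 (SE 0.34).

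**Figure D5:**
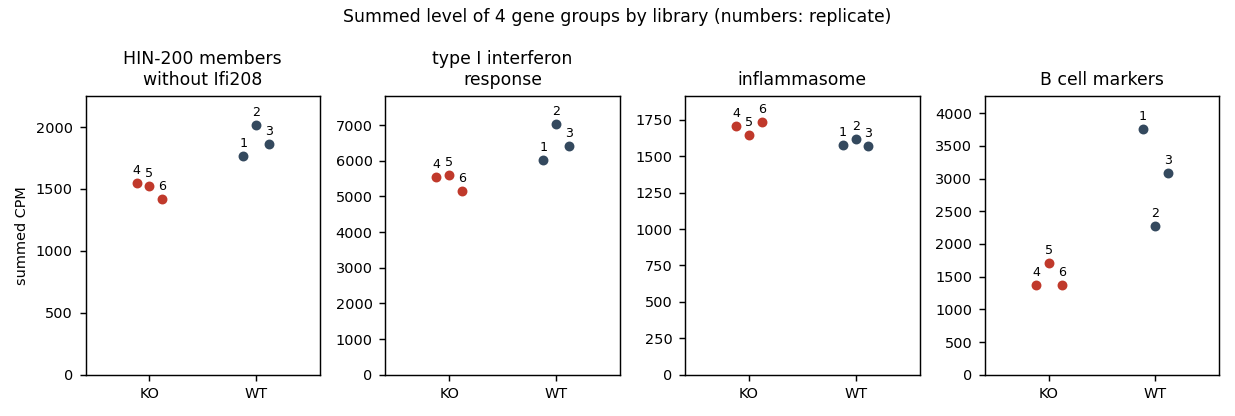
Summed CPM of 4 gene groups in each library, on linear axes from 0, KO left and WT right; points are libraries and the numbers beside them are replicates. The 9 members without Ifi208 and the type I interferon list are lower in every KO library, the inflammasome list is higher in every KO library, and the B cell markers run from 1370 to 1704 CPM in KO and from 2271 to 3761 CPM in WT.

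Among other cytosolic DNA sensing genes 1 was called, and among the interferon receptor and signalling genes 4 were. Over all genes 6.5% passed in either direction. Of 30 tested DNA sensing genes, Trim56, a ubiquitin ligase that acts on STING and cGAS, was the 1 past the threshold, at -0.22 (SE 0.05) on the log2 scale, and the median of the list was -0.02. Its call was lost without KO replicate 5, KO replicate 6 or any WT replicate. Of 21 receptor and signalling genes 2 were higher, Ifng at 1.42 (SE 0.16) and Irf1 at 0.53 (SE 0.06), and 2 were lower, Ptpn6 at -0.36 (SE 0.08) and Usp18 at -0.37 (SE 0.10), with a median of -0.01. Usp18 is also on the type I interferon list, so its call is counted in both lists. The calls of Ptpn6 and Usp18 were lost without KO replicate 4, KO replicate 6 or WT replicate 3, that of Ptpn6 also without KO replicate 5 or WT replicate 1, and that of Usp18 also without WT replicate 2. When the B cell score was in the model, Ifng was the 1 of these 4 that passed, and the log2 fold changes were 1.67 for Ifng, 0.34 for Irf1, -0.46 for Usp18 and -0.07 for Ptpn6. Irf1 is a factor induced by interferon gamma, and a link between it and the HIN-200 members was not tested.

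The genes around the cluster were close to the background of the whole genome. Within 5 Mb on either side 65 genes were tested, of which 3 were lower and 1 higher, and the median log2 fold change was -0.07. Over all 13626 genes 6.5% passed in either direction. The 4 were Slamf1, a lymphocyte receptor gene, at 0.33 (SE 0.06), Zbtb18 at -0.36 (SE 0.07), Atf6, a factor of the unfolded protein response, at -0.31 (SE 0.07), and Cep170 at -0.26 (SE 0.07). Without KO replicate 6 or WT replicate 3 the calls of Atf6 and Cep170 were lost, as they were without WT replicate 1, and that of Cep170 also without KO replicate 5. None of the 4 passed when the B cell score was in the model, where Slamf1 had 0.38, Atf6 -0.22, Zbtb18 -0.16 and Cep170 -0.13, or with WT replicate 2 as the sole WT library.

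Some markers of other cells also differed between the genotypes, and others did not. Of 18 B cell markers none passed the threshold, with a median log2 fold change of -1.96. Ifi208 and 7 other members were highest among the WT libraries in replicate 2, which had the least B cell signal. Of all tested genes, 36.3% were highest there among the WT libraries. When the B cell score was in the model, Ifi208 was lower in KO, at -3.5. The score ran from 4.406 to 5.116 in KO and from 5.527 to 6.983 in WT, so score and genotype cannot be fully told apart. The 5 plasma cell markers summed to 13.1 to 16.5 CPM in KO and 17.7 to 32.6 CPM in WT. Among them Sdc1 was called lower in KO, at -0.96 (SE 0.18) on the log2 scale. The 15 monocyte and macrophage markers summed to 111.5 to 180.3 CPM in KO and 164.9 to 188.3 CPM in WT. Of the 14 myeloid markers tested, Cd68 rose in KO, at 18.9 ± 3.17 CPM in KO and 10.1 ± 2.21 CPM in WT (SD, n = 3 each), and Ly6c2 fell, at 1.97 ± 0.77 CPM in KO and 4.6 ± 1.44 CPM in WT. The call of Cd68 was lost without KO replicate 6, and that of Ly6c2 without KO replicate 4, KO replicate 6, WT replicate 1 or WT replicate 2. Lyz2 averaged 23.7 CPM in KO and 31.1 CPM in WT and Itgam 4.87 CPM in KO and 7.17 CPM in WT, while Cd14 and Adgre1 were at or under 1.22 CPM in every library. The 5 neutrophil markers summed to at most 0.524 CPM. Dendritic cell markers summed to 7.81 to 9.77 CPM in KO and 9.20 to 13.8 CPM in WT. Siglech was the 1 called, lower in KO at -1.27 (SE 0.32) on the log2 scale. The 6 NK and CD8 T cell markers summed to 30.8 to 41.3 CPM in KO and 43.0 to 48.0 CPM in WT. The 8 stromal and melanoma markers summed to 278.1 to 288.5 CPM in KO and 232.9 to 248.7 CPM in WT. Most of that sum was Pecam1, at 248 CPM in KO and 216 CPM in WT on average. Nearly all of the rest was Pmel, at 32.0 CPM in KO and 24.0 CPM in WT, while 5 of the 8 averaged under 1 CPM. Which cells these transcripts came from was not tested. Pmel, at 0.42 (SE 0.11), and Pecam1, at 0.20 (SE 0.05), were called higher in KO. Leaving out 1 library lost the call of Pecam1 in every case, and those of Siglech and Pmel in some. With the B cell score in the model Sdc1, Siglech, Pmel and Pecam1 did not pass. The part of these cells in the smaller HIN-200 differences was not tested beyond that model.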

How the data were processed

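Bulk RNA sequencing covered 6 libraries, 3 KO and 3 WT. Per the submitters' processing notes reads went through tools that include STAR 2.4.2a, bcl2fastq and DESeq2, on GRCm38. The sources used here do not give the counter, whether it used strand, the read length or the annotation release, so reads of overlapping or antisense genes cannot be separated. The authors deposited 3 tables: raw counts by Ensembl ID, and by symbol both normalized counts (a signal whose library totals differ) and FPKM. In the deposited table the normalized counts were each library's raw counts over 1 common factor: 100% of values came out as whole reads within a relative tolerance of 0.001, and the count test was run on the raw counts.

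Raw-count rows were named by gene ID from GENCODE M21, which matched 35412 of 37187 IDs. All 10 members were found there. The symbol tables listed 4 under the same symbol and 6 under another, of which 5 are RefSeq synonyms and Ifi214 was matched by its 6 values. The two-sided test used R 4.3.3 and edgeR 4.0.16, with filterByExpr on the groups, TMM scaling, robust glmQLFit and glmQLFTest, with Benjamini-Hochberg adjustment over 13626 genes and a threshold of 0.05; standard errors came from the F statistic. CPM use TMM factors. On simulated data with 200 of 13626 genes changed, this test called 60.4% of genes changed 1.5-fold, 80.4% at 2-fold, 94.8% at 4-fold and 98.8% at 8-fold, while 10.3% of all calls were false. Pairs of libraries within a group differed by more than sampling noise, with chi-square over degrees of freedom of 5.16 to 14.6. Floors of 3 counts cover counting error only.

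The members and the 13 gene lists were chosen with earlier results of these data known, and the lists do not share genes with the members. The type I interferon list shares Usp18 with the signalling list, and Irf7 and Zbp1 with the DNA sensing list. Named from each list were up to 4 called genes with the smallest p, from the family every gene with a row, and up to 6 called neighbours on each side. Alternatives were DESeq2 1.42.0, limma-voom, limma 3.58.1 on the log2 of the deposited FPKM with 1 or 0.1 added or of normalized counts with 1 added, RLE and upper-quartile factors, no filter or at least 1 CPM in 3 samples, protein-coding genes alone, a B cell covariate (the mean over 18 markers of log2 CPM with 0.5 added), leaving out each library, and leaving out WT replicates 1 and 3. Promoter sequences are from RefSeq (GRCm38.p6) and were aligned with Biopython 1.88. Protein sequences were not analysed here.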

Additional observations from a re-analysis of the deposited data

How the results depend on the processing

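Of 486 log2 fold changes recomputed for the named genes under 18 alternatives, 394 kept their direction and side of the threshold, 88 kept their direction but no longer passed, 0 newly passed and 4 changed sign. The 4 were all of Ifi207, which had -0.15 as reported, 0.78 with the B cell covariate and 0.14 without WT replicates 1 and 3, and which ran from -0.55 to 0.23 when 1 library was left out, above 0 without KO replicate 6 (0.23) and without WT replicate 3 (0.12); at 11 to 41 reads per library its direction is not resolved. Ifi208 kept its direction and its call in all 18. With the B cell covariate the members lower past the threshold numbered 1 and those higher 0, and 40 genes passed in all, with 2 of the type I interferon list, 1 of the inflammasome list, 1 of the signalling list, 0 of the DNA sensing list and 0 of the genes within 5 Mb. On log2(FPKM + 1) these counts were 4 members lower, 391 genes, 6 type I interferon, 2 inflammasome, 2 signalling and 0 DNA sensing genes, and on log2(FPKM + 0.1) 375 genes, 6, 2, 2 and 0, with 2 neighbours. With no filter on low counts 1645 genes passed, with 24 type I interferon, 7 signalling and 3 DNA sensing genes. DESeq2 called 22 type I interferon and 4 DNA sensing genes. Without WT replicates 1 and 3 there were 282 calls, 2 of inflammasome genes and 0 of neighbours. Leaving out 1 library at a time gave 3 to 7 members lower and 1 to 1 higher, 367 to 1364 genes in all, 5 to 19 type I interferon genes, 3 to 5 inflammasome genes, 2 to 5 signalling genes, 0 to 3 DNA sensing genes and 2 to 9 neighbours. The cause of these shifts was not tested.

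No paired analysis was possible because the replicate numbers of the groups, 4 to 6 in KO and 1 to 3 in WT, have none in common. Upper-quartile factors moved the median log2 fold change of all genes by 0.023, the largest shift among the scalings tried. Depth limits Ifi204 and Ifi207.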
